A study of Drosophila melanogaster with 4 samples.

Results

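The genes described here encode the digestive enzymes of the *Drosophila* midgut and a few midgut partners of theirs. They were chosen by symbol: the Jonah (*Jon*) and trypsin (*Try*) serine proteases, the *Mal-A* and *Mal-B* maltases, the *Amy* amylases, the *Lys* lysozymes, the aspartic protease gene *Bace*, the glucosidase gene *tobi*, the *PGRP-SC* amidases and the *Peritrophin-15* genes. Among the 17023 genes counted, 53 carried such a symbol, and the 50 with at least 10 counts summed over the 4 libraries are the members. The members just inside that limit were *Jon66Cii*, with 18 counts, and *LysS*, with 27, and those just outside were *gammaTry*, with 8, and *LysP*, with 6. *Peritrophin-15b* had 0 counts in every library.

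Poly(A) RNA came from ovaries of *Drosophila melanogaster* taken 2 to 3 days after eclosion. All flies carried UAS-Dcr2, which strengthens RNA interference, and nosGAL4, a driver active in germ cells. In addition, 2 libraries came from flies with a *bam* RNAi hairpin, which blocks the first step of germ cell differentiation. A further 2 came from flies with a *Nipped-A* RNAi hairpin, directed at a scaffold protein of the Tip60 and SAGA acetyltransferase complexes. There was no group without a knockdown, and nothing in the labels says whether the libraries of a group are separate pools of flies, so a p-value here covers only how far these samples spread, and that spread may be technical.

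Midgut enterocytes secrete serine proteases, maltases, amylases and lysozymes into the gut lumen, where they break down protein, starch, sugars and bacterial cell walls. Different stretches of the midgut are known to secrete different sets of these enzymes. Peritrophins build the chitin-based matrix that lines the lumen, and PGRP-SC amidases cut bacterial peptidoglycan, which restrains gut immune signalling. Most of these genes are known chiefly from the gut, so their RNA in ovary samples is given here beside markers of gut and of other tissues.

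The totals per library ran from 21193517 to 47825006 counts. Levels are counts scaled to library size with edgeR's TMM factors (CPM), and pairs of values are given in the order library 1, library 2. 1 count equalled 0.0302 and 0.0426 CPM under the *bam* label and 0.0203 and 0.0469 CPM under the *Nipped-A* label. Values of a fraction of 1 CPM thus rest on few counts. The knockdown targets check the labels: *bam* was 4.10-fold lower under the *bam* label (edgeR quasi-likelihood test, adjusted p = 0.0254), while *Nipped-A* was 1.62-fold higher under its own label (adjusted p = 0.0287). Groups are therefore named by the labels of their libraries, and no direction below refers to a reduced *Nipped-A* transcript. Fold changes set the *Nipped-A* label over the *bam* label and were tested with edgeR's quasi-likelihood test, with Benjamini-Hochberg adjustment over the 10245 genes tested and a threshold of 0.05.

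As a sum, the 50 members held 266.5 and 261.8 CPM under the *bam* label and 2602.5 and 10861.4 CPM under the *Nipped-A* label. As a share of all counts this was 0.0261% and 0.0257% against 0.267% and 1.09%. Most of the sum under the *bam* label was a single gene, the maltase *Mal-A5*. Without it the sums were 32.0 and 29.3 CPM against 2438.0 and 10714.8 CPM. The groups do not overlap, and the 2 libraries labelled *Nipped-A* RNAi lie much farther from each other than the 2 labelled *bam* RNAi. In bulk samples more cells of a type and more RNA per cell cannot be told apart, and neither can gut tissue carried along in dissection and digestive genes active in ovary cells.

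Of the 50 members 46 had enough counts to be tested. Of these 40 rose under the *Nipped-A* label, 1 fell and 5 did not pass, beside 11.3% of all genes tested that rose and 8.31% that fell. The count of rises cannot be read as support by itself, because 25 of the 46 passed the filter on low counts through the libraries labelled *Nipped-A* RNAi alone. The median log2 fold change of the 46 was 8.67, or 7.62 with members at 0 counts under the *bam* label set at a lower bound, beside 0.00 over all genes tested. Among the 175 genes that rose by at least 64-fold, with such genes at their bound, 35 were members. That is 20% of those genes and 70% of all 50 members, tested or not, and 1.71% of all genes tested were in that class. The same limit holds here, because members that passed the filter in that way could only rise. Both libraries labelled *Nipped-A* RNAi lay above both labelled *bam* RNAi for 47 of the 50 members, beside 32.5% of all genes with at least 10 counts (33.6% of those tested). This count is no separate support, because for those 25 tested members the filter left no other order. With a filter of 10 counts in all, every member entered the test and 40 rose and 1 fell, beside 9.33% and 6.5% of genes.

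The calls rest on how the spread is estimated. limma-voom, which weights each library's log values, called 8 members higher and 1 lower, beside 8.36% and 8.3% of genes. edgeR with robust moderation called 17 and 1, beside 11.7% and 9.61%, and DESeq2 45 and 1, beside 21.0% and 14.1%. Upper-quartile scaling moved the median over all genes tested to −0.21 and gave 39 rises and 1 fall, beside 8.33% and 15.2%, and a fit with the replicate number as a block gave 39 and 0, beside 11.0% and 6.73%. The calls of *Jon65Aiii*, *Jon65Aiv*, *Jon66Ci*, *PGRP-SC1a*, *Mal-B2*, *Peritrophin-15a* and *tobi* held in all 10 alternatives that kept every library, and each other call ended in at least 1, most often under limma-voom. Among these, *Jon66Ci*, *PGRP-SC1a* and *Peritrophin-15a* passed the main filter through the libraries labelled *Nipped-A* RNAi alone and could not have fallen. Without the library labelled *bam* RNAi 1 or 2, edgeR called 0 members and 0 of all 10245 genes, so this count says nothing particular about the members. At an unadjusted p below 0.05 there were then 44 and 41 members, beside 2421 and 1862 of all genes tested. DESeq2 called 43 members in each case, beside 1536 of 9847 and 1172 of 9649 genes. Without the library labelled *Nipped-A* RNAi 2 the median log2 fold change of the members was 7.03 in edgeR and 6.89 in DESeq2. Without *Nipped-A* RNAi 1 edgeR called 45 and 1, beside 20.6% and 17.3% of all genes tested, at a median of 9.24. The median in DESeq2 was then 9.13. With a library left out, the lone sample is assumed to vary like the other group.

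**Figure D1:**
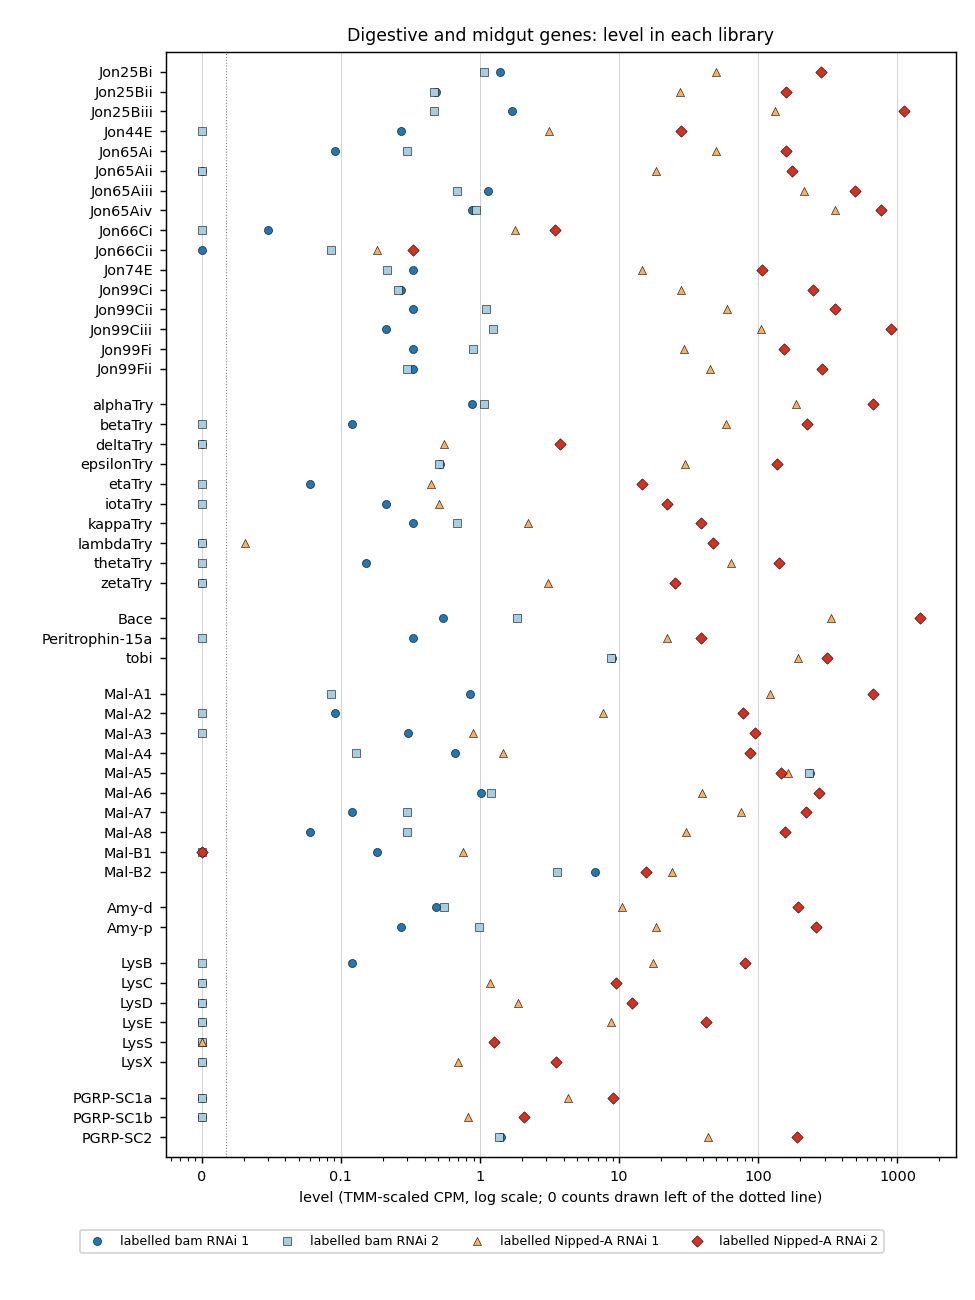
Level of each of the 50 members in each library, in TMM-scaled CPM on a log axis, grouped by family, with 1 point per library. For 47 members both libraries labelled Nipped-A RNAi lie to the right of both labelled bam RNAi. Mal-A5 lies the other way round, and LysS and Mal-B1 overlap.

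The Jonah genes encode serine endopeptidases of the larval and adult midgut. All 15 tested rose, 14 of them by 6.66 to 9.54 on the log2 scale, and the family summed to 7.78 and 8.01 CPM under the *bam* label against 1136.4 and 5211.0 CPM under the *Nipped-A* label. Several Jonah genes, *Jon65Aii* and *Jon66Ci* among them, passed the filter through the libraries labelled *Nipped-A* RNAi alone and could not have fallen. Most members of the family lie in small tandem groups: *Jon65Aiv*, *Jon65Aiii*, *Jon65Aii* and *Jon65Ai* sit within 15.3 kb on chromosome 3L (6039155 to 6054443, dm6), *Jon25Bi* to *Jon25Biii* within 5.2 kb on 2L and *Jon99Ci* to *Jon99Ciii* within 4.0 kb on 3R. *Jon25Biii* went from 1.69 and 0.469 CPM under the *bam* label to 133 and 1110.6 CPM under the *Nipped-A* label (log2 fold change 9.10 ± 1.4 (SE), adjusted p = 0.0178). *Jon99Ciii* went from 0.211 and 1.24 CPM to 105 and 896.7 CPM (9.54 ± 1.5, adjusted p = 0.0185). In both genes the library labelled *Nipped-A* RNAi 2 was more than 8 times as high as library 1, and the groups still did not overlap.

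*Jon65Aiv* and *Jon65Aiii* were less uneven. *Jon65Aiv* stood at 358 and 755.8 CPM under the *Nipped-A* label and *Jon65Aiii* at 214 and 494 CPM, each near 1 CPM or below under the *bam* label, and their standard errors of 0.52 and 0.60 were the smallest of the family. Their neighbour *Jon65Aii*, about 0.6 kb from *Jon65Aiii*, had 0 counts under the *bam* label and 18.5 and 176 CPM under the other. It was at least 1248-fold higher, a lower bound that takes 3 counts over the group as the floor, as do all such bounds below. *Jon66Ci* was a low member, with 1 count under the *bam* label and 1.77 and 3.47 CPM under the *Nipped-A* label. The ratio of its pooled rates was 129, with an exact 95% interval of 22.9 to 5142 that covers counting error only. Its neighbour *Jon66Cii*, the lowest Jonah gene, had 0 and 0.0852 CPM against 0.183 and 0.328 CPM, a ratio of 6.43 (1.51 to 57.6), and was too low to be tested.

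The trypsins, which cut proteins after basic residues, form a single tandem group of 10 members within 20.7 kb of chromosome 2R (11336840 to 11357537). Together they held 2.26 CPM in each library with the *bam* label and 346.5 and 1320.7 CPM with the *Nipped-A* label. Of the 9 tested 6 rose: *alphaTry*, *betaTry*, *thetaTry*, *epsilonTry*, *zetaTry* and *deltaTry*. Among these *betaTry*, *thetaTry*, *zetaTry* and *deltaTry* passed the filter through the libraries labelled *Nipped-A* RNAi alone and could not have fallen. *thetaTry* went from 0.151 and 0 CPM to 63.8 and 140 CPM (10.13 ± 0.85, adjusted p = 0.00925) and *epsilonTry* from 0.513 and 0.511 CPM to 30.0 and 137 CPM (7.34 ± 0.92, adjusted p = 0.0139). *alphaTry*, at 187 and 668.6 CPM under the *Nipped-A* label, and *betaTry*, at 59.0 and 223 CPM, lie next to *epsilonTry*. *deltaTry*, the lowest trypsin tested, had 0 counts under the *bam* label and 0.550 and 3.75 CPM under the other, at least 28.7-fold higher, and its call (edgeR, adjusted p = 0.0497) ended under upper-quartile scaling and limma-voom, with an adjusted p of up to 0.0989.

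*etaTry*, *iotaTry* and *kappaTry* did not pass. Their levels under the *Nipped-A* label were 0.448 and 14.7 CPM, 0.509 and 22.3 CPM, and 2.20 and 39.0 CPM, each at least 16-fold higher in library 2, and edgeR's adjusted p was 0.0613, 0.0848 and 0.0588. Both libraries still lay above both labelled *bam* RNAi for all of them. For *etaTry* and *iotaTry* the filter on low counts left no other order. They were below its level in both libraries labelled *bam* RNAi. *lambdaTry* was the extreme case, with 0 counts under the *bam* label, 1 count in the library labelled *Nipped-A* RNAi 1 and 1008 counts, or 47.2 CPM, in library 2. It could not be tested with the main filter, and its at least 270-fold difference between groups comes from 1 library. *kappaTry* and *lambdaTry* are neighbours, at the end of the group farthest from *iotaTry*.

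*Bace*, *Peritrophin-15a* and *tobi* all rose. *Bace*, an aspartic protease, went from 0.543 and 1.83 CPM to 332 and 1442.8 CPM (9.61 ± 1.10, adjusted p = 0.0127). *Peritrophin-15a*, a chitin-binding protein of the peritrophic matrix, went from 0.332 and 0 CPM to 22.1 and 38.6 CPM (7.34 ± 1.00, adjusted p = 0.0152), which is within 2-fold between the 2 libraries. *Peritrophin-15a* passed the filter through the libraries labelled *Nipped-A* RNAi alone and could not have fallen. *tobi* encodes a glucosidase known as a target of insulin-like signalling that responds to diet. It was present under the *bam* label at 8.83 and 8.70 CPM and rose to 193 and 313 CPM (4.85 ± 0.29, adjusted p = 0.00620), a smaller fold and a smaller standard error than any member protease tested. Part of the *tobi* exons overlaps exons of *rha* on the opposite strand, and the strand setting of the counting is not given in the sources used here.

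**Figure D2:**
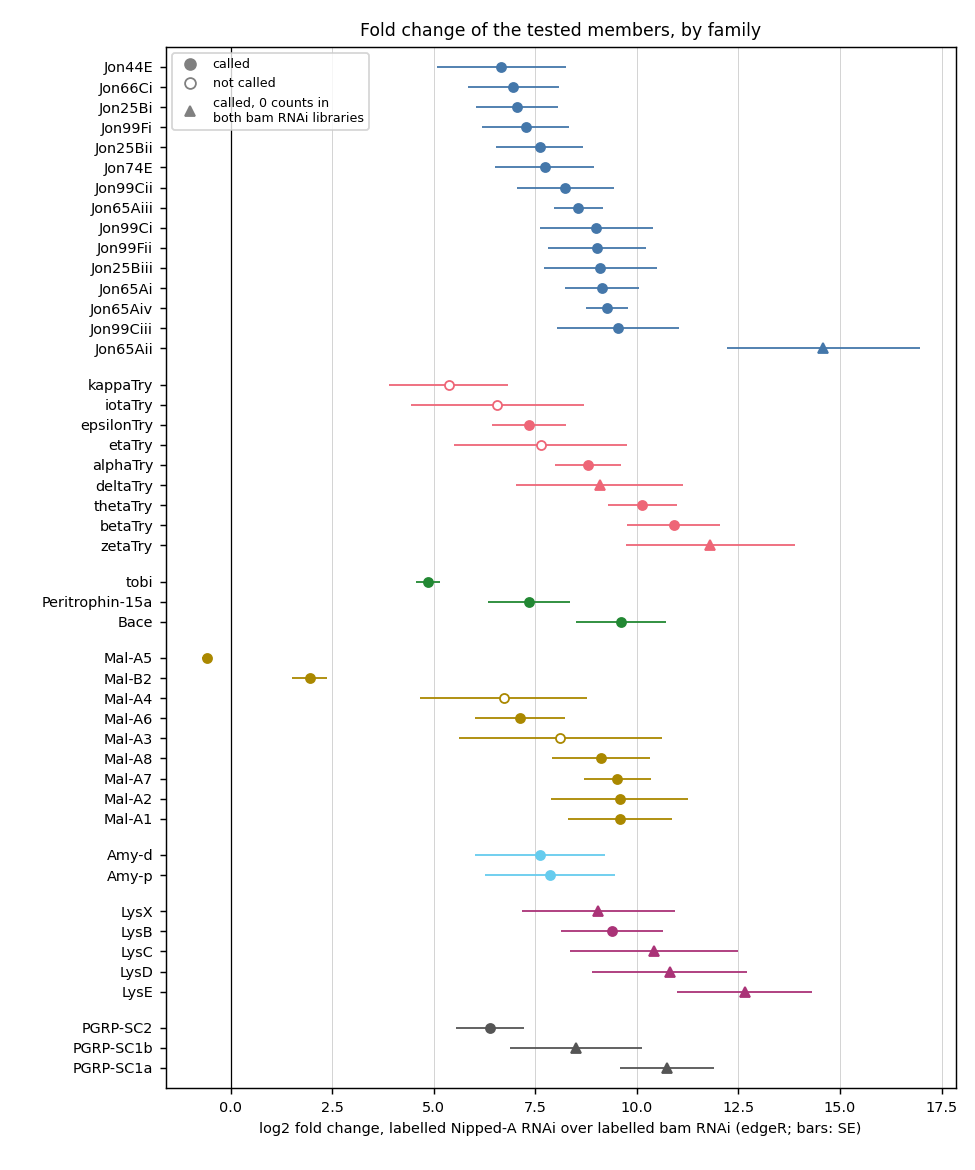
Log2 fold change of the 46 tested members, libraries labelled Nipped-A RNAi over those labelled bam RNAi, with standard errors as bars and families in separate colours. Filled symbols were called, open ones were not, and triangles mark members at 0 counts in both libraries labelled bam RNAi, whose fitted values depend on the prior count. Mal-A5 is the only member left of 0, and the open symbols are kappaTry, iotaTry, etaTry, Mal-A4 and Mal-A3.

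The maltases split malto-oligosaccharides and sucrose, and were the least uniform family. Of 9 tested 6 rose, 1 fell and *Mal-A3* and *Mal-A4* did not pass. *Mal-A1* went from 0.844 and 0.0852 CPM to 121 and 664.6 CPM (9.58 ± 1.29, adjusted p = 0.0151), *Mal-A6* from 1.03 and 1.19 CPM to 39.2 and 271 CPM (7.13 ± 1.11, adjusted p = 0.0181) and *Mal-A7* from 0.121 and 0.298 CPM to 75.4 and 221 CPM (9.52 ± 0.83, adjusted p = 0.00925). *Mal-A8* and *Mal-A2* rose by 9.11 and 9.57 as well. For *Mal-A2*, *Mal-A3*, *Mal-A7* and *Mal-A8*, which passed the filter through the libraries labelled *Nipped-A* RNAi alone, no fall could have been called. *Mal-A2* had 3 counts under the *bam* label, and the ratio of its pooled rates was 544 with a 95% interval of 186 to 2642.

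*Mal-A5* was the exception. It stood at 234.5 and 232.5 CPM under the *bam* label and at 164.5 and 146.6 CPM under the *Nipped-A* label, or 155.5 ± 12.6 CPM (SD, n = 2). The groups do not overlap, and *Mal-A5* fell by 0.59 ± 0.13 on the log2 scale (adjusted p = 0.0370). In edgeR the call ended with the replicate number as a block (−0.59, adjusted p = 0.0518) and without either library labelled *bam* RNAi (adjusted p = 0.232 and 0.291), while the direction stayed the same in every alternative. *Mal-A5* lies in the middle of the *Mal-A* group, which holds 8 members within 24.3 kb on chromosome 2R (8449664 to 8473961). Its neighbours *Mal-A4* and *Mal-A6* had 0.663 and 0.128 CPM and 1.03 and 1.19 CPM under the *bam* label, so *Mal-A5* alone of this group was abundant there.

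The other maltase with a level above 3 CPM in both libraries labelled *bam* RNAi was *Mal-B2* on chromosome 2L, at 6.69 and 3.58 CPM. It rose to 23.9 and 15.7 CPM (1.94 ± 0.43, adjusted p = 0.0362), and its call held in all 10 alternatives that kept every library. With *tobi*, these were the 3 members above 3 CPM in both libraries labelled *bam* RNAi, and the other 47 stayed below 2 CPM in both. *Mal-B1*, next to *Mal-B2*, had 6 and 0 counts under the *bam* label and 37 and 0 under the *Nipped-A* label, too few to be tested, and its groups overlap.

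The amylases, which degrade starch, rose together. *Amy-p* went from 0.271 and 0.98 CPM to 18.4 and 259 CPM (7.86 ± 1.59, adjusted p = 0.0302), and *Amy-d* from 0.482 and 0.554 CPM to 10.5 and 193 CPM (7.61 ± 1.6, adjusted p = 0.0329). In both the library labelled *Nipped-A* RNAi 2 stood more than 14 times as high as library 1. *Amy-p* and *Amy-d* are near-identical copies 7.7 kb apart from end to end, so reads could be divided between them or dropped, and their separate values are uncertain. The same holds for *LysB* to *LysE*, for *gammaTry* and *deltaTry*, for *alphaTry* and *betaTry*, and for *PGRP-SC1a* and *PGRP-SC1b*.

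The lysozymes were nearly silent under the *bam* label, with 4 counts of *LysB* in library 1 and 0 counts of the other 5 members. All 5 tested rose, but each passed the filter through the libraries labelled *Nipped-A* RNAi alone, so no fall could have been called. *LysB* reached 17.4 and 80.5 CPM (9.39 ± 1.25, adjusted p = 0.0151) and *LysE* 8.77 and 41.8 CPM, at least 355-fold higher. *LysC*, *LysD* and *LysX* were at least 70.2-fold, 95.1-fold and 29.2-fold higher, at 1.18 and 9.56 CPM, 1.87 and 12.3 CPM, and 0.692 and 3.51 CPM. *LysC* and *LysD* overlap at their ends on opposite strands. *LysS* had 0 counts in 3 libraries and 27 counts, or 1.27 CPM, in the library labelled *Nipped-A* RNAi 2, so its groups overlap.

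The PGRP-SC amidases lie beside *Jon44E* on chromosome 2R. *PGRP-SC2* went from 1.42 and 1.36 CPM to 43.8 and 189 CPM (6.38 ± 0.83, adjusted p = 0.0148). *PGRP-SC1a* and *PGRP-SC1b* had 0 counts under the *bam* label, passed the filter through the libraries labelled *Nipped-A* RNAi alone and could not have fallen. *PGRP-SC1a* reached 4.27 and 9.09 CPM, at least 108-fold higher, and *PGRP-SC1b* 0.814 and 2.06 CPM, at least 22.5-fold higher. The call of *PGRP-SC1b* ended with the replicate number as a block (adjusted p = 0.0526).

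The 2 libraries labelled *Nipped-A* RNAi differed in these genes more than in most others. Of the 50 members 47 were higher in library 2 than in library 1, beside 49.1% of all genes tested. The median ratio was 2.48 on the log2 scale over the 48 members with counts in both, beside −0.01 over all genes tested, and 34 members were at least 4-fold higher in library 2, beside 5.63% of genes tested. The 2 libraries labelled *bam* RNAi showed no such lean, with 14 members higher in library 2, 25 lower and 11 at 0 counts in both. These ratios set 1 library against another and carry no test.

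Members did not share a common ratio. There were 6 within 2-fold between the 2 libraries: *Mal-A5*, *Mal-B2*, *tobi*, *Peritrophin-15a*, *Jon66Ci* and *Jon66Cii*. At the other end 8 were at least 16-fold higher in library 2: *lambdaTry*, *Mal-A3*, *Mal-A4*, *iotaTry*, *etaTry*, *Amy-d*, *kappaTry* and *LysS*, the last with 0 counts in library 1. The large families lay between, at ratios of their summed levels of 4.59 for the Jonah proteases, 3.81 for the trypsins and 4.98 for the lysozymes, against 15.6 for the amylases. Among the 48 members with counts in both libraries the ratio ran from −0.61 for *Mal-B2* to 11.18 for *lambdaTry* on the log2 scale, the latter against 1 count. *Mal-B1* had 37 counts in library 1 and 0 in library 2.

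**Figure D3:**
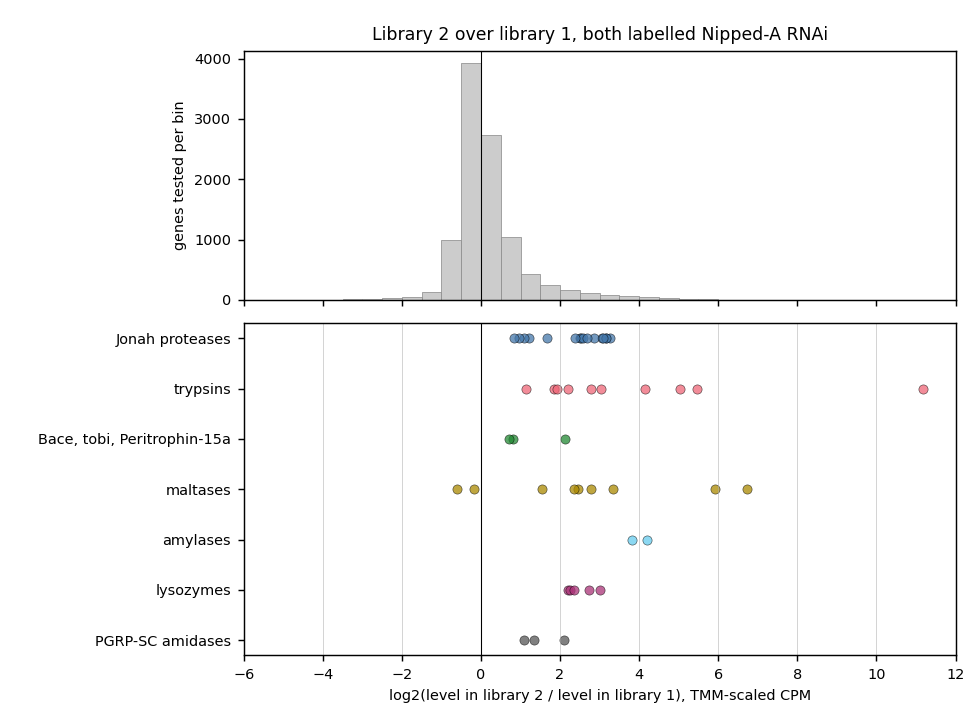
Log2 ratio of the level in the library labelled Nipped-A RNAi 2 to that in library 1. The upper panel counts all genes tested with counts in both libraries per bin of the ratio, and the lower panel has 1 point for each member with counts in both, by family. The genes centre near 0 and most members lie between 1 and 4, with Amy-d and some trypsins and maltases above.

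Neighbours within a tandem group could differ widely in this ratio. In the *Mal-A* group *Mal-A3* went from 0.896 CPM in the library labelled *Nipped-A* RNAi 1 to 94.8 CPM in library 2 and *Mal-A4* from 1.47 to 87.9 CPM. *Mal-A5*, next in line, went from 164.5 to 146.6 CPM and *Mal-A7* from 75.4 to 221 CPM. In the trypsin group *thetaTry* went from 63.8 to 140 CPM, or 2.19-fold, while the adjacent *etaTry* went from 0.448 to 14.7 CPM. All these neighbours share the same pair of libraries.

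**Figure D4:**
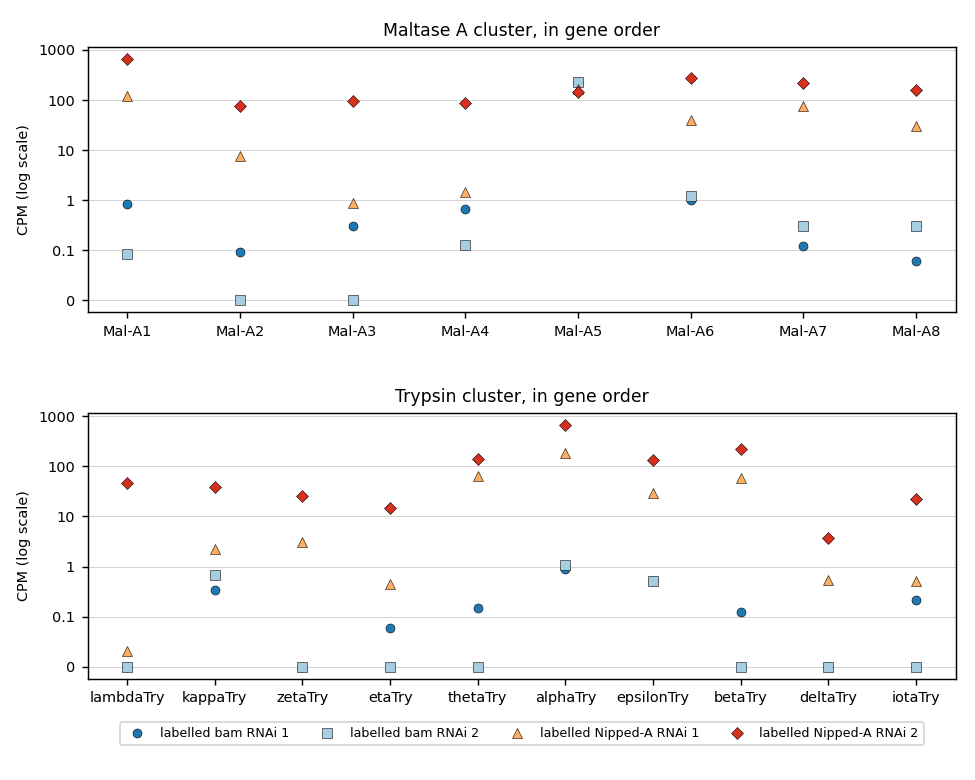
Level of each member of the Mal-A group and of the trypsin group in gene order along chromosome 2R, in TMM-scaled CPM on a log axis, with 1 point per library and 0 counts drawn at the bottom. The distance between both libraries labelled Nipped-A RNAi is wide at Mal-A3, Mal-A4, lambdaTry, etaTry and iotaTry and narrow at Mal-A5 and thetaTry.

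The order of the members by level also differed between the 2 libraries. Per kilobase of exon, the scale on which genes of different length can be compared, *Jon65Aiv* led in the library labelled *Nipped-A* RNAi 1 at 396 CPM per kb. It was followed there by *Jon65Aiii* at 245, *Bace* at 235, *alphaTry* at 217 and *Jon25Biii* at 160.5. In library 2 *Jon25Biii* led at 1342.9 CPM per kb, followed by *Bace* at 1019.6, *Jon65Aiv* at 836.0, *alphaTry* at 777.4 and *Jon99Ciii* at 723.1. The Jonah proteases made up 43.7% of the members' summed level in library 1 and 48.0% in library 2. The maltases made up 17.9% and 16%, the trypsins 13.3% and 12.2%, and the amylases 1.11% and 4.16%, so the families kept similar shares except the amylases.

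Most members are short genes with few exons. Their exons covered 242 to 2717 bases with a median of 912, and 33 of the 50 had a single exon. By chromosome arm 24 were on 2R, 13 on 3L, 7 on 2L and 6 on 3R, and 46 lay in 11 tandem groups whose members are at most 50 kb apart. Exons of 7 members overlapped exons of another gene on the opposite strand and 0 on the same strand. The 7 were *Jon44E*, *LysC*, *LysD*, *Mal-A1*, *Mal-A8*, *tobi* and *deltaTry*.

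Other genes of the gut were read from lists that do not use the symbol rule. Beside them, 11.3% of all genes tested rose and 8.31% fell, and 8.36% and 11.7% rose under limma-voom and robust moderation. Counts of rises in these lists have the limit stated for the members. *nub*, *Npc1b*, *LManIV*, *Ser6* and *AstC*, at 0 counts under the *bam* label, passed the filter through the libraries labelled *Nipped-A* RNAi alone. So did *LManIII*, *Muc68E*, *Vha100-4*, *exex*, *lab*, *pros* and *NPF*, which had few counts under the *bam* label. For none of these genes could a fall have been called. Of 9 tested genes of enterocytes and absorption 8 rose, while limma-voom called 1 and robust moderation 3. Among them *LManIII*, an alpha-mannosidase gene, went from 0.241 and 0 CPM to 14.9 and 170 CPM (9.35, adjusted p = 0.0248), and the gastric lipase gene *mag* from 1.36 and 0.256 CPM to 32.2 and 456 CPM (8.14, adjusted p = 0.0296). *LManIV* had 0 counts under the *bam* label and 3.48 and 15.7 CPM under the other. *Myo31DF*, the enterocyte myosin, made up nearly all of this list under the *bam* label, at 84.1 and 93.5 CPM, and rose to 139 and 158 CPM. The list summed to 87.7 and 95.5 CPM against 245.0 and 2291.3 CPM, and all 10 matched genes were higher in the library labelled *Nipped-A* RNAi 2 than in 1. Of the 10 genes *nub*, *Npc1b* and *LManIV* were at 0 under the *bam* label. The gene that did not pass was *Npc1b*, the sterol uptake receptor, at 0.407 and 80.6 CPM under the *Nipped-A* label.

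Of 3 tested proteases outside the symbol rule 2 rose, *yip7*, at 0.663 and 1.79 CPM against 214 and 553 CPM (8.34, adjusted p = 0.00925), and *Ser6*, at 0 counts against 4.25 and 34.3 CPM. The mucin-related gene *Mur29B* rose among 3 tested genes of the peritrophic matrix and mucins. Under limma-voom and robust moderation 1 of these proteases was called, and the call of *Mur29B* ended under both. *Vha100-4*, a proton pump subunit of acid-secreting copper cells, went from 0.121 and 0.0852 CPM to 18.5 and 26.9 CPM (7.70, adjusted p = 0.00620), and the other 2 copper cell genes, *lab* and *dve*, did not pass. Among 8 gut transcription factors 5 rose: *Hnf4*, *cad*, *exex*, *srp* and *Ptx1*, while upper-quartile scaling and robust moderation called 4 and limma-voom 3. *GATAe*, *lab* and *pros* did not pass. *Hnf4* and *srp* were already present under the *bam* label, at 63.3 and 58.9 CPM and at 66.7 and 59.7 CPM. Unlike most members, *Hnf4*, *srp* and *cad* were lower in the library labelled *Nipped-A* RNAi 2 than in 1. *exex* stood at 0.0603 and 0 CPM against 1.45 and 8.01 CPM, and *Ptx1* at 0.754 and 1.41 CPM against 4.56 and 23.8 CPM. *cad*, at 32.3 and 39.3 CPM against 171 and 127 CPM, is also a maternal transcript of the oocyte.

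Of 7 tested enteroendocrine genes *AstC*, a peptide hormone gene, rose, from 0 counts to 2.52 and 16.5 CPM, a call that ended under limma-voom, and 6 did not pass. The list's summed level was mostly the peptide gene *CCHa2*, at 147 and 171 CPM against 62.3 and 108 CPM, while the median log2 fold change of the 7 was 2.65. The zinc finger gene *klu*, a marker of enteroblasts, rose from 1.06 and 1.11 CPM to 9.65 and 13.5 CPM (3.42, adjusted p = 0.0132), and it was the only gene tested of the list for intestinal stem cells and enteroblasts. Of that list *esg* and *Dl* were not matched. *Sox21a* and *Sox100B* had 0 counts under the *bam* label and at most 0.187 and 0.469 CPM under the other, so *klu* does not stand for the list. Of 6 tested regulators of digestive enzymes by diet 1 rose, the activin receptor gene *babo* (0.62, adjusted p = 0.0449), and of 6 gut immunity genes *Rel*, the NF-kappaB factor of the Imd pathway, rose (0.60, adjusted p = 0.0331). The calls of *babo* and *Rel* ended under upper-quartile scaling, and that of *babo* also under limma-voom.

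Markers of other tissues moved in different ways beside the digestive genes. The 2 tested hindgut genes did not pass, with *bowl* at 98.7 and 94.4 CPM against 51.6 and 66.9 CPM, although 1 of them fell under upper-quartile scaling, DESeq2, limma-voom, robust moderation, a filter of 1 CPM in 2 libraries and no filter. The hindgut factor *byn* stayed at or below 0.122 CPM in every library. Of 6 Malpighian tubule genes *ZnT35C* rose and *Best2* fell, and *Uro*, urate oxidase, stood at 73.8 and 74.2 CPM against 12.1 and 180 CPM, with the libraries labelled *Nipped-A* RNAi on either side of the others. Of 10 genes of visceral and sheath muscle 8 fell, and the list summed to 28044.9 and 27783.4 CPM against 8363.8 and 11110.2 CPM. In the fat body list 4 of 8 genes fell and 2 rose, while robust moderation called 2 each way. Its summed level was mostly *apolpp*, the lipophorin gene, at 493 and 419 CPM against 1248.1 and 1317.4 CPM, and the list's median log2 fold change was −2.93. The ovary itself was present in every library: the germ cell list summed to 722.4 and 726.0 CPM against 1983.4 and 1257.7 CPM, and the follicle and somatic list to 7763.1 and 8362.0 CPM against 13818.8 and 14413.3 CPM. The somatic sum was mostly *Yp1*, *Yp2* and *Yp3*, which rose. In the same list *tj*, *Fas3* and *Vm26Aa* did not pass, at log2 fold changes of −0.38, −0.18 and 0.42.

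**Figure D5:**
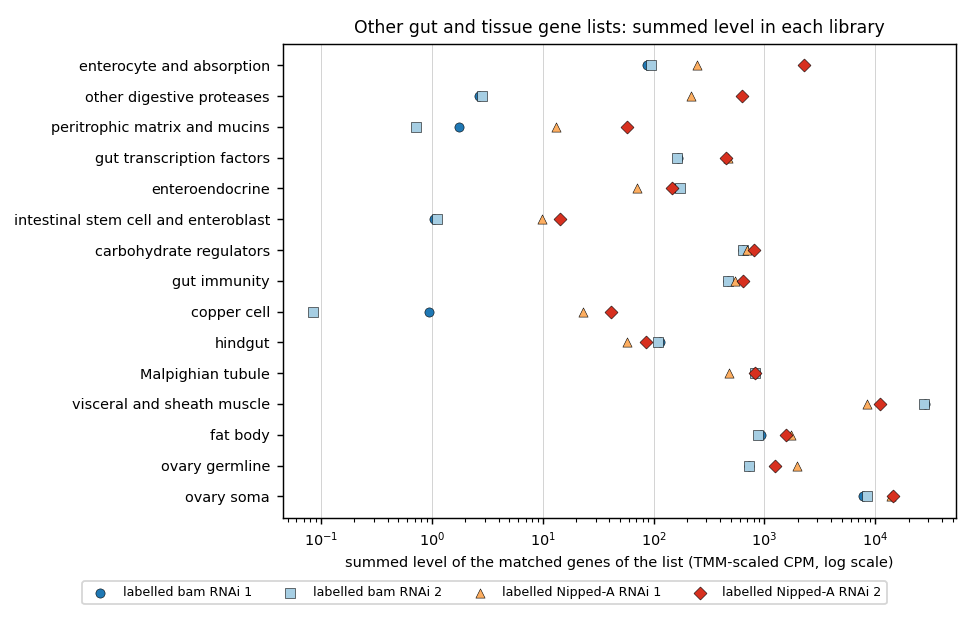
Summed level of each list of gut and other tissue genes in each library, in TMM-scaled CPM on a log axis, with 1 point per library. The muscle, hindgut and enteroendocrine sums, the last mostly CCHa2, are lower in both libraries labelled Nipped-A RNAi than in both labelled bam RNAi, the Malpighian tubule sums overlap, and the other 11 lists, those of fat body (mostly apolpp) and ovary (the somatic one mostly Yp1, Yp2 and Yp3) included, are higher in both.

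In the *Nipped-A* label library 2 was higher than library 1 for 47 of the 50 members, beside 49.1% of all genes tested. The same was so for all 10 enterocyte genes, by 1.14-fold to 198-fold, and all 9 enteroendocrine genes, by 1.74-fold to 11.5-fold. It was so for 6 of 7 Malpighian tubule genes, among them *CapaR* at 16.3-fold, *Uro* at 14.9-fold, *Lkr* at 13.8-fold and *Irk3* at 10.04-fold. All 10 muscle genes were also higher there, but by 1.00-fold to 2.23-fold. It was so for 5 of 8 gut transcription factors and 1 of 4 germ cell genes. The part of these other cell types in the result was not tested.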

How the data were processed

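The authors deposited raw read counts per gene, 1 file for each of the 4 libraries. Per the labels' protocols, RNA was poly(A)-selected and the kit was directional. The submitters' processing notes name HISAT2 2.1.0, featureCounts 1.6.0.4, edgeR 3.16.5 and the dm6 build, while the annotation, strand setting and rule for reads with several matches were not given in the sources used here. Symbols were matched for 16647 of 17023 identifiers, and positions come from Ensembl gene models on dm6 coordinates. The members and gene lists were chosen with earlier results of these data known.

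Counts were filtered with filterByExpr, scaled with TMM and tested two-sided with glmQLFit and glmQLFTest in edgeR 4.0.16 (R 4.3.3), on all genes together. Standard errors were taken from the fold change and its F statistic (|log2 fold change| / √F). Folds against 0 counts are lower bounds on a floor of 3 counts over the group, from counts and library sizes pooled over each group, and cover counting error only, like the 95% intervals. The TMM factors were 0.98, 0.983, 1.03 and 1.01. On log2 CPM, Pearson's r was 0.972 within the *bam* label and 0.954 within the *Nipped-A* label. The chi-square per gene was 21.4 and 226, so no library repeats another. The steps were tested on simulated counts. Results were recomputed with RLE, upper-quartile or no scaling, 3 other filters, robust moderation, DESeq2 1.42.0, limma-voom (limma 3.58.1), a replicate block and 1 library left out at a time. DESeq2 with a library left out was added after seeing the data.

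Members were named by family: all of a family of up to 6, and otherwise the 4 most abundant and the lowest, with the rest in counts. Of each list up to 4 called genes with the smallest adjusted p were eligible, or the most abundant where none was called. Genes named beyond this, among them *Npc1b*, *Ptx1*, *CCHa2*, *Uro*, *CapaR*, *Lkr*, *Irk3*, *byn*, *lab*, *dve*, *Jon65Aii* and the members picked out for their ratio between libraries, were chosen after their values were seen. Of the symbols in the 15 lists 6 were not analysed here, nor were promoter or protein sequences.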

Additional observations from a re-analysis of the deposited data

How the results depend on the processing

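The median log2 fold change of the members stayed positive in every alternative, from 7.35 to 8.89 with every library kept and from 6.89 to 9.24 with 1 library left out. The number of members called was 41, and it was 9 under limma-voom and 18 under robust moderation (the cause was not tested). It ranged from 0 to 46 with 1 library left out. All genes called numbered 2004, against 3521 with DESeq2 and 0 to 4289 with 1 library left out. DESeq2 called 1172 without *bam* RNAi 2, 3216 without *Nipped-A* RNAi 1 and 3751 without *Nipped-A* RNAi 2. Under upper-quartile scaling 853 genes rose and 1556 fell, and the members gave 39 rises and 1 fall. The replicate block gave 39 rises and 0 falls. Same-numbered libraries did not deviate together over the genes as a whole (correlation −0.0756). With 2 libraries per group, this cannot decide whether same-numbered libraries were handled together, above all where only some genes were affected. The block called 1813 genes. The members' summed level under the *bam* label was 264 CPM, against 259 as a share of raw counts, 256 without the Jonah proteases, 254 without *Bace*, *tobi* and *Peritrophin-15a*, and 22.9 without the maltases. Of 817 comparisons of a single member under an alternative, 645 kept their side of the threshold, 146 lost the call, 26 gained it and 0 changed direction. The lost calls include every call under edgeR without a library labelled *bam* RNAi, which says nothing particular about the members. Members at or near 0 counts under the *bam* label could hardly change direction.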
